A study of Mus musculus with 12 samples.

Results

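The genes described here are 10 cytokines and receptors of the IL-1, TNF, IL-6, IL-10 and TGF-beta systems: the ligands *Il1a*, *Il1b*, *Tnf* and *Tgfb1*, the IL-1 receptor antagonist *Il1rn*, and the receptor chains *Il1rap*, *Tnfrsf1a*, *Tnfrsf1b*, *Il6ra* and *Il10rb*. They were taken by gene symbol from a table of 13232 genes, which lists 9 of the 10; *Il1a* is not among its rows. The group was picked from the comparison reported here, because *Il1rn* was higher in macrophages of fat-fed mice while *Il1b* stayed near the bottom of the table, so the differences between diets in these genes are given as a description, without a test.

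Bone marrow-derived macrophages are obtained by growing whole marrow with the growth factor M-CSF. The donors were wild-type C57B6/J mice on a high-fat diet (HFD) or a normal diet (ND). All cultures received M-CSF at 20 ng/ml, moved to serum-free medium on day 4, and the 6 used here spent 1 h at 1% oxygen on day 7, with 3 libraries per diet. Where 3 values are given for a diet, they are replicates 1, 2 and 3 in that order. The labels give no age, sex or length of feeding and do not say whether the libraries of a diet came from different mice, so the spread between libraries may be partly technical. The 6 normal-oxygen samples of the series were not analysed here, and nothing below concerns the response to hypoxia itself.

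IL-1 alpha and IL-1 beta act through a receptor whose accessory chain is encoded by *Il1rap*; the receptor antagonist binds the same receptor without starting a signal. *Il1b* is known to be nearly silent in resting macrophages and to be switched on by microbial or other inflammatory stimuli, and its protein has to be cleaved by caspase-1. TNF is made as a membrane protein, is shed by the protease ADAM17, and binds TNF receptor 1 (*Tnfrsf1a*), which carries a death domain, and TNF receptor 2 (*Tnfrsf1b*), which does not. *Il6ra* encodes the ligand-binding chain of the IL-6 receptor, which signals through gp130 (*Il6st*). *Il10rb* encodes the chain that the IL-10 receptor shares with receptors of related cytokines. *Tgfb1* encodes a cytokine that is secreted in a latent form.

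The promoters of the inflammatory ligands *Il1b* and *Tnf* and of the antagonist *Il1rn* are shown, since the results turn on these genes, each running from 250 bases before to 50 bases after an annotated start in RefSeq (GRCm38.p6, the assembly also known as mm10). *Il1rn* has several annotated starts, which are known to give a secreted and intracellular forms of the antagonist; the gene's value is a total over them. Of the 10 genes, 9 have such a window. Capitals mark matches to 5 motifs: TATAAA on the gene's strand, and on either strand the kappa-B-like GGGNNNNNCC, the hypoxia-response core ACGTG, the AP-1 site TGANTCA and the C/EBP-like TTGCNNAA. Overlapping matches were counted separately.
*Il1rn*, upstream start (chr2:24336610-24336909, plus strand): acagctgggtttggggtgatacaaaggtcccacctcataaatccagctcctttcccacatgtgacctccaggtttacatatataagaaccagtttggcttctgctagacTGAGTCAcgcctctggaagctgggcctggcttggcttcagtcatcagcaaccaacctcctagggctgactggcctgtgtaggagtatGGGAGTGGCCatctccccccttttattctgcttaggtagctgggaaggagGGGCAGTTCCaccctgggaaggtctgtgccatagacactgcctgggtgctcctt
*Il1rn*, most downstream start (chr2:24345121-24345420, plus strand): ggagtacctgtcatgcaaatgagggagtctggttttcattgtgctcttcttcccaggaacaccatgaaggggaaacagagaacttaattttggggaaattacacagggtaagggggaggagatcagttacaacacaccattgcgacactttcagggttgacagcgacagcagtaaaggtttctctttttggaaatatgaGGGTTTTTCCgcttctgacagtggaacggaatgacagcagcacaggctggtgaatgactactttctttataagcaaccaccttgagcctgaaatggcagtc
*Il1b* (chr2:129371090-129371389, minus strand): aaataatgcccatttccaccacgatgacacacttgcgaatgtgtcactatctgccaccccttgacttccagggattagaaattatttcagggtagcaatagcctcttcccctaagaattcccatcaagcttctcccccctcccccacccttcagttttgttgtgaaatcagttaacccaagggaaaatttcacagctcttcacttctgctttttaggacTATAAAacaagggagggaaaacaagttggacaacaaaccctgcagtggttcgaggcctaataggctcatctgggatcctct
*Tnf* (chr17:35201958-35202257, minus strand): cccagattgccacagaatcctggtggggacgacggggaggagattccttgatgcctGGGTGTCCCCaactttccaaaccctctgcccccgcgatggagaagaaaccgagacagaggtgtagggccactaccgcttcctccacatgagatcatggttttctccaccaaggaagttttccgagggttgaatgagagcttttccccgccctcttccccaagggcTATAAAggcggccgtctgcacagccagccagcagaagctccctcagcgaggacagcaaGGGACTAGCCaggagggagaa

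*Il1b* and *Tnf* share a TATAAA at 31 and 29 bases before the start, as does *Il1a* at 32 bases before it, and 8.3% of all 32851 promoter windows hold that motif. No *Il1rn* window holds it. The kappa-B-like motif is common, being present in 50.8% of all windows, and was found in 7 of the 9 genes with a window, but not in that of *Il1b* or *Il1a*. ACGTG, present in 19.6% of all windows, was found for *Il6ra* and *Il1rap*. TGANTCA, present in 7.8%, was found for *Il1a* and in the upstream *Il1rn* window at 141 bases before the start. TTGCNNAA, present in 10.8%, was found in none of the 9. These are letter matches only.

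The libraries held an estimated 19046372 to 22805211 reads in ND and 23017022 to 24491442 in HFD, so each HFD library was the deeper one before the authors' scaling. All 8 macrophage markers examined, among them *Csf1r*, *Adgre1* and *Lyz2*, were listed, with a summed signal of 345313 to 395574 in ND and 342872 to 402478 in HFD, of which *Lyz2* alone made up 216365 to 267532. Without overlap between diets, *Adgre1* was higher in HFD (log2 difference 0.16) and *Cd14*, the LPS co-receptor, was lower (-0.29). Markers of B cells, of mast cells and basophils and of erythroid cells were not listed (0 of 5, 0 of 5 and 0 of 4). Of 7 T and NK cell markers only *Cd4* was listed, of 8 dendritic cell markers only *Itgax*, of 6 stromal markers the 3 collagens, and of 12 neutrophil markers 7. The summed collagen signal was 308, 549 and 177 in ND and 125, 337 and 51.8 in HFD, and each collagen had a lower log2 mean in HFD (*Col1a1* -1.33, *Col1a2* -1.04, *Col3a1* -1.45). *Cd4* was also lower in mean (-0.7), and the diets overlapped for all 4 genes. In bulk RNA, fewer cells of a type and less RNA per cell cannot be told apart.

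By mean scaled signal, 1.2% of all genes in the table lay above *Tnfrsf1b*, the highest of the 9, and 8 genes lay below *Il1b*, the lowest. To compare the 9 with each other, levels are given as scaled signal per kilobase of the longest coding transcript, over the 6 libraries. *Tgfb1* was the most abundant at 4684 ± 156 (SD, n = 6), followed by *Tnfrsf1b* at 3683 ± 355, *Il10rb* at 2415 ± 106 and *Tnfrsf1a* at 1424 ± 78.8. Each of these 4 lay above the next gene in all 6 libraries. *Il6ra* came next at 456 ± 92.8, then *Tnf* at 292 ± 42.7 and *Il1rn* at 194 ± 39.4, and in this stretch the ranges of neighbours overlapped: *Il6ra* went down to 341 where *Tnf* reached 367, and *Tnf* went down to 248 where *Il1rn* reached 252. *Il1rap* followed at 77.6 ± 4.10 and *Il1b* was last at 9.26 ± 5.60, each clear of the gene above it. In these cells the receptor chains for TNF and IL-10 were thus far above the transcripts of the inflammatory ligands. The order from *Il6ra* downwards was the same per kilobase of all annotated exons, while *Tgfb1* and *Tnfrsf1b*, and *Il10rb* and *Tnfrsf1a*, changed places. *Il6ra* has a much shorter coding transcript of 3343 bases beside the longest one of 8639 bases; if the short form were the one present, its mean level would be 1179 per kilobase, above *Tnf* in every library, above *Tnfrsf1a* in ND replicates 1 and 2 and below it in the other libraries.

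**Figure D1:**
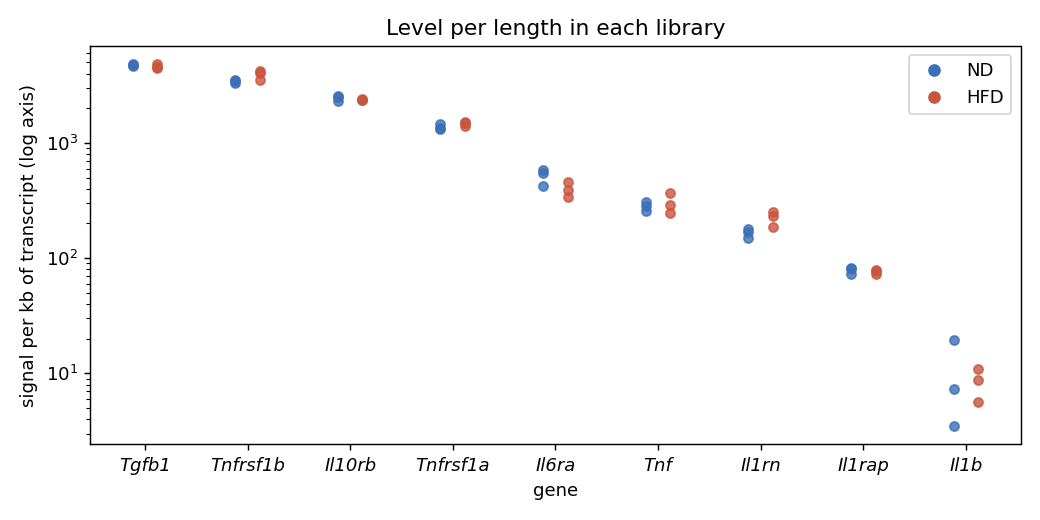
Scaled signal per kilobase of the longest coding transcript for the 9 listed genes, on a log axis, with 1 point per library (ND left, HFD right). *Tgfb1* and *Tnfrsf1b* sit at 3345 or more in every library, *Il1b* at 19.5 or less.

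*Il1rn*, the antagonist (chr2:24336853-24351494), had scaled signals of 447, 369 and 414 in ND and of 459, 574 and 623 in HFD. All 3 HFD libraries lay above all 3 ND libraries, HFD replicate 1 only just. The means were 410 ± 39.4 in ND and 552 ± 84.1 in HFD (SD, n = 3 each), 34.6% apart, and the log2 difference on the log2(value + 1) scale was 0.42. The gap between the closest libraries of the diets, ND replicate 1 and HFD replicate 1, was 2.7% of the signal, against a counting error of 6.61% on that gap, so their order is not resolved by the reads behind it. Those reads numbered 448 and 469, with exact Poisson 95% intervals of 407 to 491 and 428 to 513; such intervals cover counting error only. Leaving out 1 library moved the log2 difference between 0.33 (without HFD replicate 3) and 0.55 (without HFD replicate 1).

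Neutrophils also make *Il1rn*, and the 7 listed neutrophil markers (*Mmp8*, *Mmp9*, *Ltf*, *Ngp*, *S100a8*, *S100a9* and *Lcn2*) all had a higher log2 mean in HFD, *Mmp8* and *Mmp9* (2 of the 7) without overlap between diets, against 7.44% of all genes that were higher without overlap. *Mmp8* was at 443, 462 and 452 in ND and at 707, 1032 and 834 in HFD. *Mmp9* was at 63.9, 137 and 175 in ND and at 234, 320 and 258 in HFD. Both were lowest among the HFD libraries in HFD replicate 1, as *Il1rn* was, and highest in HFD replicate 2. Their log2 differences were 0.90 (*Mmp8*) and 1.21 (*Mmp9*). The other listed markers had smaller ones and overlapped between diets: *Ltf* 0.11, *S100a9* 0.14, *Ngp* 0.21, *S100a8* 0.38 and *Lcn2* 0.40. The summed signal of the 7 was 1776, 2592 and 1964 in ND and 2711, 3750 and 2367 in HFD; the diets overlapped. The library with the most *Il1rn*, HFD replicate 3, had the lowest marker sum of the 3 HFD libraries, below ND replicate 2. *Elane*, *Mpo*, *Camp*, *Retnlg* and *Cxcr2* were not listed. The dendritic cell marker *Itgax*, which macrophages can also express, was at 1138, 1172 and 2131 in ND and at 2072, 2899 and 3071 in HFD, with overlap and with its highest value in HFD replicate 3. The other 7 dendritic cell markers were not listed. HFD replicate 3 was also the deepest library. The part of any of these in the *Il1rn* values was not tested.

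*Il1b* (chr2:129364570-129371139) was close to the lower edge of the table, where only 8 of 13232 genes had a lower mean. Its scaled signal was 9.98, 26.4 and 4.72 in ND and 14.7, 7.72 and 11.8 in HFD. The highest and the lowest library were both ND, with the HFD libraries between them. These values correspond to 10, 27 and 4 reads in ND and to 15, 8 and 13 reads in HFD, 41 against 36 in all. The exact Poisson 95% intervals of ND replicate 2 (17.8 to 39.3 reads) and ND replicate 3 (1.09 to 10.2 reads) did not meet, whereas those of the HFD libraries overlapped one another. The mean was 16.8% lower in HFD and the log2 difference was 0.0082, so even the sign depends on the scale, and without 1 library the log2 difference was as low as -0.52, with ND replicate 3 left out, and as high as 0.60, with ND replicate 2 left out. Of the exonic bases of *Il1b*, 25 overlap the antisense gene *Il1bos*, and the strand setting of the counting is not given in the sources used here.

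**Figure D2:**
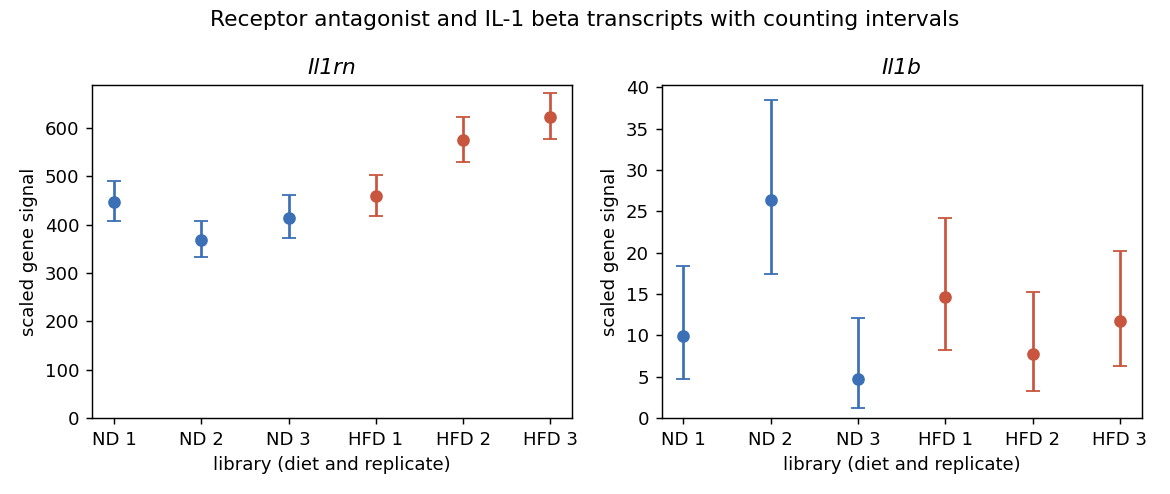
Scaled signal of *Il1rn* (left) and *Il1b* (right) in each library, both axes starting at 0, with exact Poisson 95% intervals from the reads behind each value. The *Il1rn* interval of ND replicate 1 contains the value of HFD replicate 1 (459); the *Il1b* values run from 4.72 to 26.4, both extremes in ND.

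The ratio of antagonist to ligand transcripts overlapped between diets. Per length, *Il1rn* exceeded *Il1b* by a ratio of 24.6, 7.65 and 48.1 in ND and of 17.1, 40.8 and 28.9 in HFD. Antagonist transcripts were in excess in every library. The HFD ratios lay inside the ND range, but the ends of that range rest on 27 and 4 *Il1b* reads: exact binomial 95% intervals, for counting error only, were 5.18 to 11.8 for ND replicate 2 and 18.6 to 178 for ND replicate 3, the latter overlapping those of all 3 HFD libraries. *Il1rap*, the accessory chain (chr16:26581704-26730117), was at 365, 374 and 332 in ND and 327, 356 and 351 in HFD. The diets overlapped, with a log2 difference of -0.05. Its spread between libraries of a diet, 0.080 on the log2 scale, was 1.03 times what counting alone gives. It shares exonic bases with the antisense gene *Gm20319*.

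*Tnf* (chr17:35199381-35202007) had scaled signals of 465, 419 and 503 in ND and of 407, 476 and 601 in HFD. The HFD libraries held both the lowest and the highest value, and the log2 difference of 0.08 turned to -0.07 without HFD replicate 3. That library was the highest for both *Tnf* and *Il1rn*.

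The TNF receptors differed from each other in level and in spread. *Tnfrsf1b* (chr4:145213463-145246870) was at 13147, 12772 and 13432 in ND and at 15425, 16090 and 13495 in HFD. HFD replicates 1 and 2 stood well above ND, while HFD replicate 3 exceeded ND replicate 3 by 0.47%, with a counting error of 1.25% on that gap. The means were 13117 ± 331 and 15003 ± 1348 (SD, n = 3 each), a log2 difference of 0.19, and after quantile normalization the diets overlapped (0.14). *Tnfrsf1a* (chr6:125349362-125362484) was at 2828, 2929 and 3151 in ND and at 3258, 3221 and 3038 in HFD, a log2 difference of 0.10 with overlapping diets. HFD replicate 3 was the lowest HFD library for both receptors and ND replicate 3 the highest ND library for both. Per length, receptor 2 exceeded receptor 1 by a ratio of 2.63, 2.46 and 2.41 in ND and of 2.67, 2.82 and 2.51 in HFD, again with overlap. Transcripts of receptor 2 exceeded those of *Tnf* per length by a ratio of 9.64 to 16.3, and HFD replicates 3 and 1 were the 2 ends of that range.

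*Il6ra* (chr3:89864059-89913196) had the most negative log2 difference of the 9, with signals of 5046, 4699 and 3663 in ND and 3936, 3353 and 2943 in HFD. ND replicate 3 lay below HFD replicate 1, so the diets overlapped; the other 2 ND libraries lay above all of HFD. The means were 4469 ± 720 and 3411 ± 499 (SD, n = 3 each), 23.7% lower in HFD, with a log2 difference of -0.39 that became -0.52 with ND replicate 3 left out and -0.29 with HFD replicate 3 left out. Its spread within a diet was 9.71 times that of counting, the widest margin of the 9. The signalling partner *Il6st* was at 12688, 12438 and 11389 in ND and at 12357, 12352 and 12666 in HFD, lowest in ND replicate 3. The ratio of *Il6ra* to *Il6st* per length was 0.399, 0.380 and 0.323 in ND and 0.320, 0.273 and 0.233 in HFD. The diets did not overlap in this ratio, but the closest libraries, ND replicate 3 and HFD replicate 1, were 0.97% apart. The counting error on that gap was 2.75%, so their order is not resolved. ND replicate 3, which lay below HFD replicate 1 for *Il6ra* itself, came above it in the ratio through its lower *Il6st*. *Il6* itself was not listed. The collagens and *Cd4* had lower means in HFD too, and their part in the *Il6ra* values was not tested. *Il6ra* shares 242 exonic bases with the antisense gene *Gm42809*.

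*Il10rb* and *Tgfb1* were nearly level across the 6 libraries. *Il10rb* (chr16:91406164-91425834) was at 4664, 4750 and 4246 in ND and at 4333, 4412 and 4406 in HFD, a log2 difference of -0.05. It shares exonic bases with *Gm21970* on the same strand, so its value depends on how shared reads were assigned. *Tgfb1* (chr7:25687002-25705077) was at 10079, 10382 and 10528 in ND and at 10474, 10021 and 9642 in HFD, a log2 difference of -0.04. The diets overlapped for both genes.

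**Figure D3:**
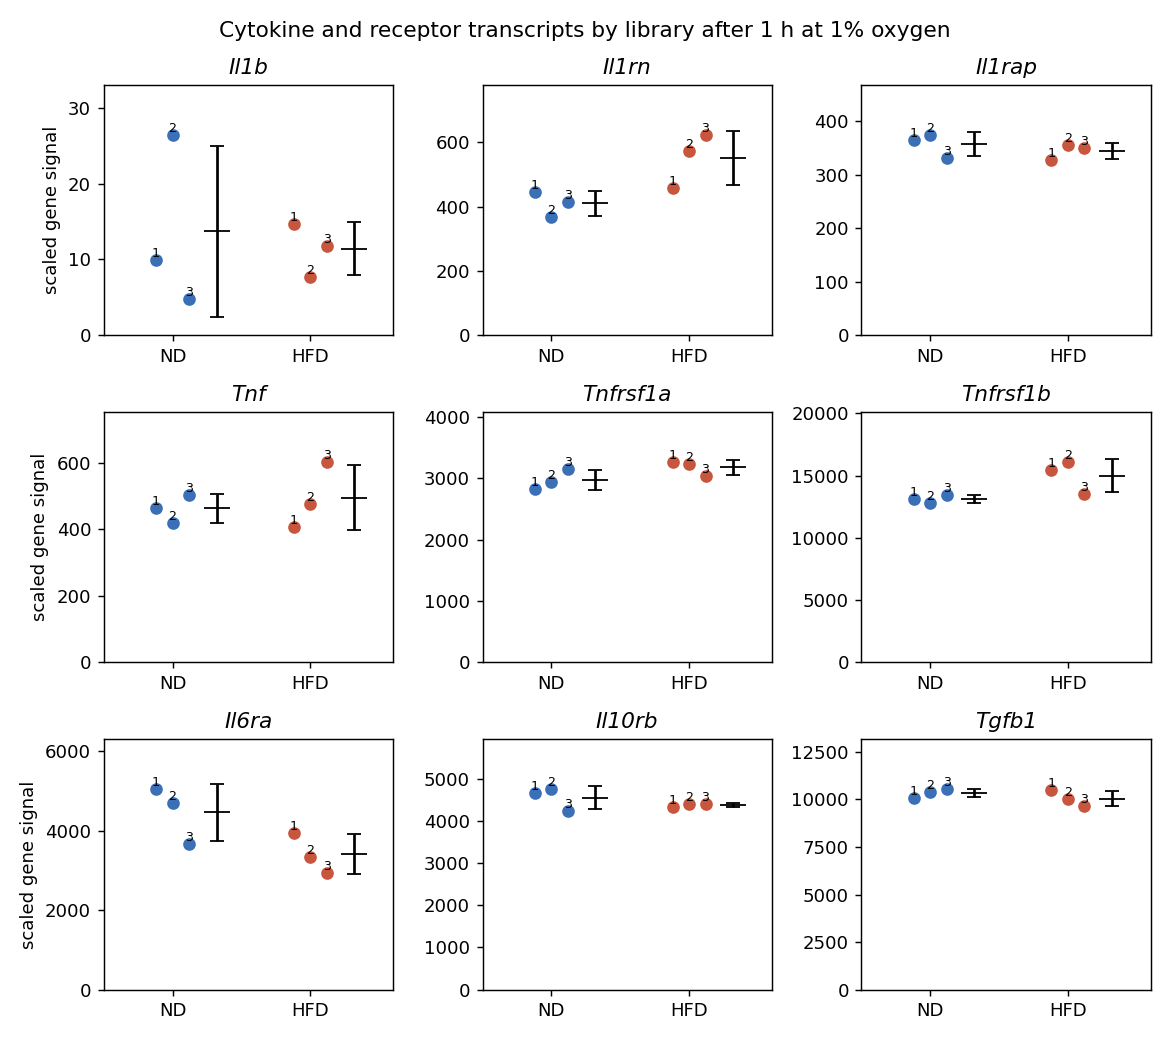
Scaled signal of each listed gene by diet, 1 panel per gene with axes starting at 0; points are libraries with their replicate number, and bars give the mean and SD of 3 libraries. *Il1rn* and *Tnfrsf1b* are the genes whose diets do not overlap, and *Il6ra* is lower in HFD apart from ND replicate 3.

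Over the 9 genes, 5 had a higher and 4 a lower log2 mean in HFD, with a median log2 difference of 0.008 against -0.0034 over all 13232 genes, and a median absolute difference of 0.083 against 0.092. The diets did not overlap for 2 of the 9 (22.2%), *Il1rn* and *Tnfrsf1b*, against 14.5% of all genes in the table; both were higher in HFD. Over all genes, 7.44% were higher in HFD without overlap and 7.07% were lower without overlap. Since these genes were picked from this comparison, nothing is read from that share. The spread within a diet had a median of 0.124 on the log2 scale over all genes. *Il1b* (0.858), *Il6ra* (0.227), *Tnf* (0.221) and *Il1rn* (0.189) lay above it, and *Tnfrsf1b* (0.097), *Il1rap* (0.080), *Tnfrsf1a* (0.068), *Il10rb* (0.062) and *Tgfb1* (0.048) below it. Apart from *Il6ra* and *Tgfb1*, the ligand and antagonist genes thus had a wider log2 spread than the receptor chains, without allowing for level. As a multiple of the spread from counting the order differed. *Il6ra* (9.71) and *Tnfrsf1b* (7.94) were widest, and the rest lay between 1.03 (*Il1rap*) and 3.35 (*Tgfb1*), with *Il1b* at 1.8. For *Il1b*, counting alone gives a spread of 0.477.

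**Figure D4:**
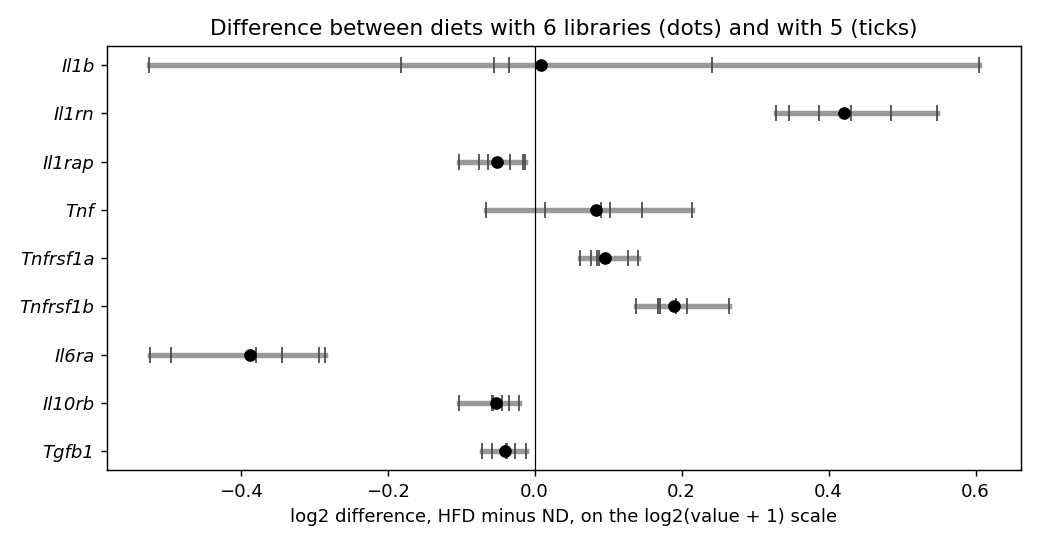
Log2 difference between diets (HFD minus ND) for each listed gene with all 6 libraries (dots) and with each library left out (ticks, joined by a bar). *Il1b* spans -0.52 to 0.60 and *Tnf* also crosses 0. *Il1rn* (0.33 to 0.55) and *Tnfrsf1b* cannot cross 0 here, because their diets do not overlap.

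Genes whose values followed *Il1rn* and *Il1b* most closely were found by Pearson's r of log2(value + 1) over the 6 libraries, among 10794 genes with a mean of at least 100. For *Il1rn* these were *Map4k1* (r = 0.986), *Ndufa11* (0.985) and *Hnrnpa1* (0.982). *Map4k1*, a kinase of blood cells, was at 202, 188 and 201 in ND and at 203, 225 and 239 in HFD, the same order of HFD libraries over a much narrower range. For *Il1b* they were *Abcb1a* (0.998), a drug efflux pump, *Nbeal1* (0.991) and *Ints12* (0.989). With 6 libraries, 166 genes exceeded 0.9 for *Il1rn* and 150 for *Il1b*, so these are the top of a long list. The *Il1b* values rest on 4 to 27 reads per library, so its matches are to a profile with a large counting error.

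To place these genes, 65 further genes of the same cytokine systems that are in the table, of 89 written down, were tested between diets with limma over all 13232 genes. None of the 65 passed an adjusted p of 0.05, nor did any gene in the table (0%, limma, Benjamini-Hochberg). An unadjusted p under 0.05 was reached by 11 of the 65 (16.9%), 8 higher and 3 lower in HFD, against 10.6% of all genes, 5.40% higher and 5.18% lower. The share with an unadjusted p under 0.05 changed with single libraries and settings: it was 4.6% (3 genes) without HFD replicate 2, against 5.5% of all genes, and 6.2% (4 genes) without ND replicate 1, against 5.3%. It was 10.8% (7 genes) with limma run without the trend, against 9.5%, and 29.2% (19 genes) with array weights, against 27.6%. The diets did not overlap for 10 of the 65 (15.4%, against 14.5% of all genes). The count of 0 became 8 with limma array weights, which down-weight the libraries that fit their diet least, and 1 (*Lifr*) without ND replicate 3. The weights were 3.09 for HFD replicate 2 and 1.91 for ND replicate 1, against 0.441 to 0.891 for the others. The weighted fit thus leans on 1 library per diet.

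Among other IL-1 family genes, *Il18bp*, a soluble protein that binds and blocks IL-18, was at 305, 394 and 289 in ND and at 419, 423 and 411 in HFD. The diets did not overlap, and the log2 difference was 0.35 (SE 0.12, limma adjusted p 0.343, from 0.0412 with array weights to 0.932 over its alternatives). *Il18* itself was low, at 100.0 ± 15.0 in ND and 84.3 ± 10.6 in HFD. Of the IL-1 family receptors only *Il18rap*, the accessory chain for IL-18 (56.9 ± 4.43 and 45.9 ± 11.1), and *Il1rl1*, the IL-33 receptor (252 ± 84.4 and 261 ± 70.3), were listed; *Il1r1* and *Il1r2* were not. *Il1rl1* stood apart by replicate 3, at 350 in ND and 342 in HFD against 202 to 223 elsewhere. The signalling and processing genes were all listed, 12 of 12, with log2 differences from -0.10 (*Irak3*) to 0.12 (*Casp1*, the protease that matures IL-1 beta) and none at an unadjusted p under 0.05. The *Casp1* difference was 0.045 without HFD replicate 3 and 0.0545 with array weights. *Tab3*, an adaptor of the TAK1 kinase, had a difference of 0.10, which was 0.052 without ND replicate 3.

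In the TNF system the RNA-binding repressors of cytokine messages had differences of opposite sign. *Zfp36* (tristetraprolin) was at 3860, 4237 and 3656 in ND and at 3545, 3238 and 3504 in HFD, without overlap (log2 difference -0.19, SE 0.07, limma adjusted p 0.396). *Zc3h12a* (regnase-1) was at 626, 722 and 740 in ND and at 909, 793 and 736 in HFD, with overlap (0.22, SE 0.10, limma adjusted p 0.466). Its diets did not overlap after scaling to the column total or quantile normalization, and the difference was 0.14 without HFD replicate 1. The sheddase *Adam17* was at 6933 ± 177 and 7244 ± 271 (SD, n = 3 each). Of 18 genes of TNF receptor signalling, 4 had a higher and 14 a lower log2 mean in HFD. *Traf2*, counted among the 14, was level at 385 ± 11.2 in ND and 387 ± 48.7 in HFD. The median log2 difference was -0.04, against -0.0034 over all genes. The genes with the smallest p were *Cyld*, a deubiquitinase that restrains the pathway (-0.18, limma adjusted p 0.437), and *Tnfaip3*, which encodes the inhibitor A20 (0.14, limma adjusted p 0.447). *Tnfaip3* was at 1285, 1337 and 1371 in ND and at 1456, 1469 and 1474 in HFD, with no overlap.

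In the IL-6 system, *Lifr*, the LIF receptor chain that pairs with gp130, had the largest difference of the 65 genes with all 6 libraries. *Itgb8* came close (0.62) and led in size after quantile normalization (0.65 against -0.62) and without ND replicate 1 or HFD replicate 3. *Lifr* was at 1682, 1362 and 1082 in ND and at 990, 792 and 852 in HFD, without overlap. The log2 difference was -0.63 (SE 0.15, limma adjusted p 0.230). In other settings that p lay between 0.0063, with array weights, and 0.879 (limma), and it also passed without ND replicate 3 (0.0163). Like *Il6ra*, it was lowest in ND replicate 3 among the ND libraries. The part of the stromal and T cell markers, which were lower in HFD as well, was not tested. *Osm*, the related cytokine oncostatin M, was at 158 ± 11.0 and 127 ± 30.4 (log2 difference -0.34, limma adjusted p 0.530). *Jak1*, *Jak2*, *Tyk2* and *Stat3*, the shared signal transducers, had differences from -0.09 to -0.0045. In the IL-10 system *Il10* was low at 85.7 ± 15.9 and 93.2 ± 16.6, and *Il10ra* (-0.08) and *Bcl3* (-0.10) took the opposite sign without HFD replicate 3.

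In the TGF-beta system 9 of 15 genes were higher and 6 lower in HFD, with a median log2 difference of 0.02. At an unadjusted p under 0.05 there were 5 of the 15 (33.3%), against 10.6% of all genes in either direction and 5.40% higher, and none passed the adjusted threshold (limma). The 5, all higher in HFD, were *Tgfbr1*, *Itgb8*, *Ltbp3*, *Tgif1* and *Skil*, of which the last 3 were named after their values were seen. In the other lists that count was 0 of 12 (IL-1 signalling), 0 of 2 (IL-1 family receptors) and 0 of 3 (IL-10). It was 1 of 2 (IL-1 family ligands and binding proteins) and 2 of 5 (TNF family ligands and shedding). It was 2 of 18 (TNF receptor signalling) and 1 of 8 (IL-6). All 65 genes gave 3 without HFD replicate 2 and 4 without ND replicate 1, so the 5 did not all remain there. The lists were chosen with earlier results known, so nothing is read from the 33.3%. *Tgfbr1*, the type I receptor, was at 3103, 3404 and 3231 in ND and at 3573, 4049 and 3679 in HFD (log2 difference 0.21, SE 0.07, limma adjusted p 0.323). *Itgb8*, the integrin chain that releases TGF-beta from its latent form, was low at 41.9, 49.9 and 62.6 in ND and 72.4, 84.9 and 78.1 in HFD (0.62, SE 0.19, limma adjusted p 0.319). Neither gene overlapped between diets. *Tgfbr2*, the type II receptor, was at 4308 ± 286 and 4054 ± 267, and *Smad2*, *Smad3* and *Smad4* had differences from -0.12 to 0.02.

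**Figure D5:**
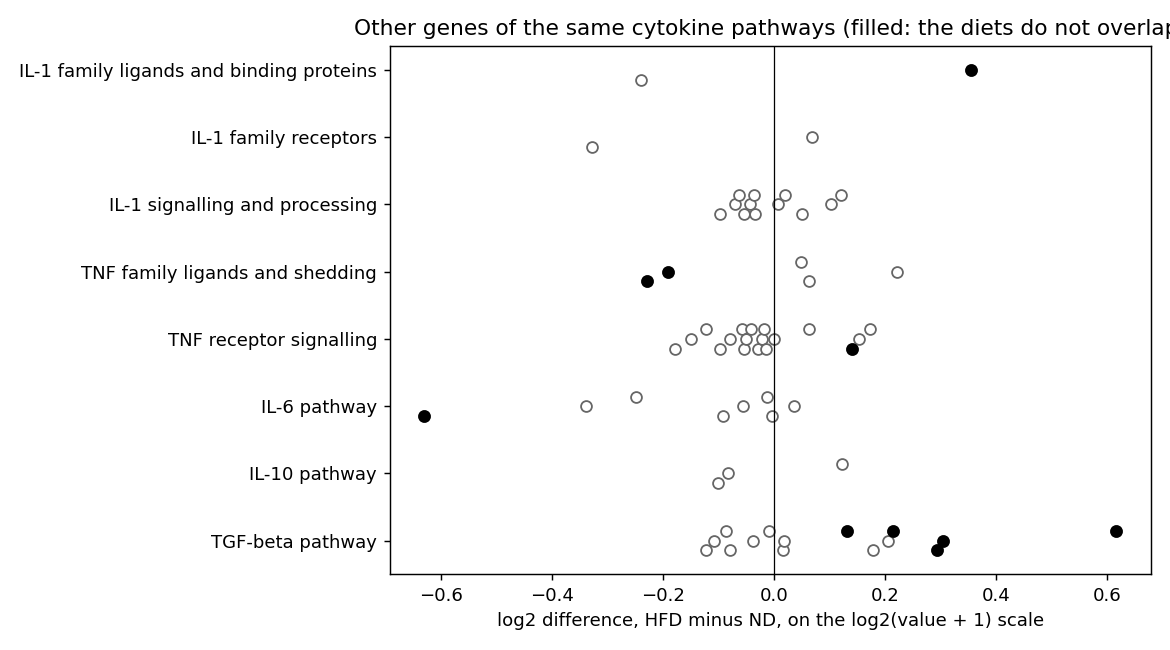
Log2 difference between diets (HFD minus ND) for 65 further genes of these cytokine systems, 1 row per list and 1 point per gene; filled points are genes whose 3 HFD and 3 ND values do not overlap. *Lifr* at -0.63 and *Itgb8* at 0.62 are the extremes, and none passed an adjusted p of 0.05.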

How the data were processed

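RNA was sequenced from macrophage cultures as stranded, ribosomal RNA-depleted libraries (100 ng of RNA, single reads of 75 bases), per the labels' protocols. The submitters' processing notes name STAR, Partek and the build mm10; the counter, annotation and filters are not given in the sources used here. The deposited values are a signal, taken from the values themselves to be estimated gene counts divided by a size factor per library. Dividing by the value of 1 read gave whole reads (within 0.02) for 57.1% to 58.4% of values between 5 and 1000, so whole reads were not recovered in general and no count test was run. Column names carry NC where the labels have a normal diet; these were matched because the labels name no further diet.

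Gene members and lists were chosen with earlier results of these data known. The diets (3 libraries each) were compared on log2(value + 1) by limma 3.58.1, run in R 4.3.3 (mean-variance trend, two-sided, Benjamini-Hochberg over 13232 genes, threshold 0.05). SE is limma's moderated standard error. The procedure was tested on simulated data. Named were all listed members, the 2 pathway genes with the smallest p in each list, the 3 genes closest to *Il1rn* and to *Il1b*, and marker lists; other genes were named after their values were seen. Gene positions and lengths are from GENCODE M21 (GRCm38), promoters from RefSeq. Alternatives were another pseudocount (0.1), a minimum mean of 100, 2 other scalings, limma without the trend, array weights, a replicate block and each library left out. At the median gene (mean 462) counting error is 4.65%.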

Additional observations from a re-analysis of the deposited data

How the results depend on the processing

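Over all genes, the 0 with an adjusted p under 0.05 became 1133 with array weights and 31 with the replicate block, and 0 to 233 without 1 library, the 233 without ND replicate 3. At an unadjusted p under 0.05 the 1401 genes became 3646 with array weights and 700 to 2309 without 1 library (lowest with ND replicate 1 left out, 726 with HFD replicate 2 left out, highest with ND replicate 3 left out). The 1921 genes without overlap became 2493 to 4746 when a library was left out, as fewer values have to be separated. The pathway count of 0 became 8 with array weights, namely *Il18bp*, *Zfp36*, *Cyld*, *Lifr*, *Tgfbr1*, *Skil*, *Ltbp3* and *Itgb8*, and 0 to 1 without 1 library. Beyond that, the cause was not tested. Same-numbered libraries had residual correlations of -0.01, -0.04 and 0.00 over all genes, which cannot exclude pairing in some of them. In both diets *Il1rl1* was highest in replicate 3, and the 3 collagens were highest in replicate 2 and lowest in replicate 3. The replicate block left the pathway count at 0, while over all genes it gave the 31 above.

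For the 9 listed genes, 115 of 116 values moved by less than the spread between libraries. *Tgfb1* was the exception and went to -0.11 after quantile normalization. That count was largely fixed beforehand and is not read as stability. Leaving out 1 of 3 libraries cannot shift a mean by as much as that spread. Limma without the trend and the replicate block return the same log2 differences as the main fit. *Il1b* had no value with a minimum mean of 100. Of 205 values for named pathway genes, 193 kept direction and side of the threshold and 7 came to pass it. The remaining 5 changed sign: *Il1rl1* in 3 of the fits with a library left out (-0.14 to 0.33), and *Il10ra* (-0.21 to 0.049) and *Bcl3* (-0.21 to 0.10) in 1 fit each, that lacking HFD replicate 3. Among the 9 genes counting error is widest for *Il1b* (0.477 on the log2 scale, 4 to 27 reads per library), which is less than its spread of 0.858 within a diet.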
